A study of Rattus norvegicus with 6 samples.

Results

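In the hippocampus of rats given amyloid-beta oligomers, 5 of the 10 genes described here, which encode neuropeptide Y (NPY), somatostatin and related peptides and their receptors, were down-regulated compared to sham rats. They were Npy, Npy5r, Sstr1, Sstr2 and Sstr4, whose reporting probes were between 1.44-fold and 2.07-fold lower in the AD group. Npy, Npy5r and Sstr2 each had a second probe that was not called, that of Npy5r at 102% of the Sham level. No probe of the 10 genes was up-regulated. Of their 12 tested probes 5 were called lower (41.7%), against 8.40% of all probes tested on the arrays. Sst itself had a mean 2.06-fold lower in AD but missed the threshold, and its 3 AD samples lay far apart. Cort and Npy1r did not pass the test, and Npy2r was too dim to be tested. The calls of all 5 genes were lost when scan was entered as a random block, or replicate number or slide position as a block. They were also lost when any array other than Sham replicate 3 was left out. In these settings 0 of all tested probes were called, or 2 without AD replicate 3. Npy and Sstr1 lost their calls with quantile normalization and with the authors' value table too, which gave nearly the same changes as each other. Without a filter on dim probes only Npy5r was called. The direction of change of the 5 called probes was kept throughout.

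Both peptides are released from dense-core granules, mostly by inhibitory interneurons, and act on receptors coupled to inhibitory G proteins, which lower cyclic AMP and dampen excitability and transmitter release. In the hippocampus somatostatin is made by dendrite-targeting interneurons, many of which also make NPY, while NPY is also made by neurogliaform and ivy cells. Low somatostatin in cortex and cerebrospinal fluid is a long-known feature of Alzheimer's disease, and somatostatin is known to raise the amyloid-degrading enzyme neprilysin.

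The 10 genes were taken by family, with no value in the rule, though the family was proposed with earlier results of these data known. The peptides are Npy, Sst and Cort (cortistatin, a close relative of somatostatin), the NPY receptors are Npy1r, Npy2r and Npy5r, and the somatostatin receptors are Sstr1, Sstr2, Sstr3 and Sstr4. Every probe whose accession belonged to one of these genes was included, which gave 14 of the 30367 non-control probes of the array. A total of 12 member probes of 9 genes were bright enough to be tested, and they are among the 22768 probes tested in all.

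The samples were hippocampal tissue of male SD (Sprague Dawley) rats. Aβ1–42 oligomers had been given by intracerebroventricular (ICV) injection to the AD group (3 arrays). In the Sham group (3 arrays) vehicle alone went into the lateral ventricles on both sides. The study's methods describe the animals as adult, the labels give no genetic change in either group, and the injection is an acute model that adds peptide from outside. The labels do not say which animal each hippocampus came from, and p-values here reflect only the spread among the samples, which may be partly technical. In a whole-tissue extract, fewer cells of a type and less RNA per cell cannot be told apart.

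Levels are log2 intensities relative to the array's own 75th percentile, with 0 at that percentile and a difference of -1 standing for a halving of the signal. A probe counted as called at an adjusted p (Benjamini-Hochberg, limma) under 0.05 over all tested probes. The arrays differed in brightness, with the 75th percentile at a signal between 753 and 932 on 5 arrays and at 429 on Sham replicate 3. The AD arrays made up 1 scan, Sham replicates 1 and 2 a scan of their own on that day, and Sham replicate 3 a scan on day 2, so scan and group cannot be told apart. With scan as a random block 0 member probes and 0 probes in all were called by limma (5 member probes and 3672 probes at an unadjusted p under 0.05). Within the first day, which leaves out Sham replicate 3 but still sets one scan against another, the same 5 member probes were called.

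The sequences just before and around the start of 3 of these genes are shown because they carry motifs named below and because Sst and Sstr2 share one that is rare among rat promoters. Each window is RefSeq sequence of the GRCr8 assembly, 300 bases from 250 before to 50 after the annotated gene start, written in the direction of transcription. Capitals mark the cyclic AMP response element TGACGTCA and the GC box GGGCGG, searched on both strands. Sst lies at chr11:90461296-90461595 (+ strand), Sstr2 at chr10:99163103-99163402 (+ strand) and Npy at chr4:80211861-80212160 (+ strand).
Sst: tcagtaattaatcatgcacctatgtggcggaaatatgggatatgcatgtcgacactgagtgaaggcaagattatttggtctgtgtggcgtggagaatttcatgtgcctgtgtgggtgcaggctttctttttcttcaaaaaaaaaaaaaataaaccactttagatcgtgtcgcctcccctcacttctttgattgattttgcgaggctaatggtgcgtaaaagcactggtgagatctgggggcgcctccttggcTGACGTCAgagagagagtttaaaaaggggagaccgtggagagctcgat
Sstr2: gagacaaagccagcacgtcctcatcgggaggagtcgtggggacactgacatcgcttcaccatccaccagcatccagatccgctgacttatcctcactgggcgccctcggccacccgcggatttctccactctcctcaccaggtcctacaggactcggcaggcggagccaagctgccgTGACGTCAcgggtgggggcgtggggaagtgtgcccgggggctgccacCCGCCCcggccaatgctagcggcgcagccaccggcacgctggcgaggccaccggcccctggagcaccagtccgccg
Npy: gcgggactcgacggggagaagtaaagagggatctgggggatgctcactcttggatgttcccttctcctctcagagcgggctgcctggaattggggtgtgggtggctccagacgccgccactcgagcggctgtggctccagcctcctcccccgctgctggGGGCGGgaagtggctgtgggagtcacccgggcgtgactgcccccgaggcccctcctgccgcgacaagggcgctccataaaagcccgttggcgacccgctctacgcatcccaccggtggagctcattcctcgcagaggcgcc

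All 10 members had a window in the promoter table, and the 8-letter cyclic AMP response element, the site bound by CREB and its relatives, was found in those of Sst and Sstr2 (2 of 10). It was found in 612 of 33469 rat promoter windows, or 1.83%. In Sst the element lay 2 bases after the annotated start, and in Sstr2 it began at position -73 from the start. Its shorter core TGACG, which the full element contains, was found for Cort, Sstr1, Sstr2, Sst and Npy1r, against 21.2% of all windows. The GC box was found for Npy, Sstr3 and Sstr2, against 33.1% of all windows. These matches describe letters in a window and were not measured as bound sites on these arrays.

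Over all tested probes, 12.6% were called and 8.40% were called lower in AD. Of the 12 tested member probes, 5 were called and all 5 were lower, which is 41.7% of them. The mean was lower in AD for 11 of the 12, and the median change over the 12 was -0.42, while the median over all tested probes was -0.01. The 3 AD values lay below all 3 Sham values for 7 of the 12 member probes (58.3%), where 23.4% of all tested probes did so and 39.0% were apart in either direction, and no member probe lay entirely above. On the levels used here, Sst and a probe of Npy5r passed the study's cut-offs (2-fold or more, unadjusted p below 0.05). They were 2 of 12, against 2.25% of all tested probes. Only 1 member probe passed with the authors' value table or with quantile normalization, and 0 passed with the 75th percentile over detected probes. With the authors' values Sst changed by -0.86, which is less than 2-fold. On the separate AD arrays the 12 probes had a median of -0.45, -0.49 and -0.43 relative to the Sham mean, so each AD array showed a lower level of similar size.

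**Figure D1:**
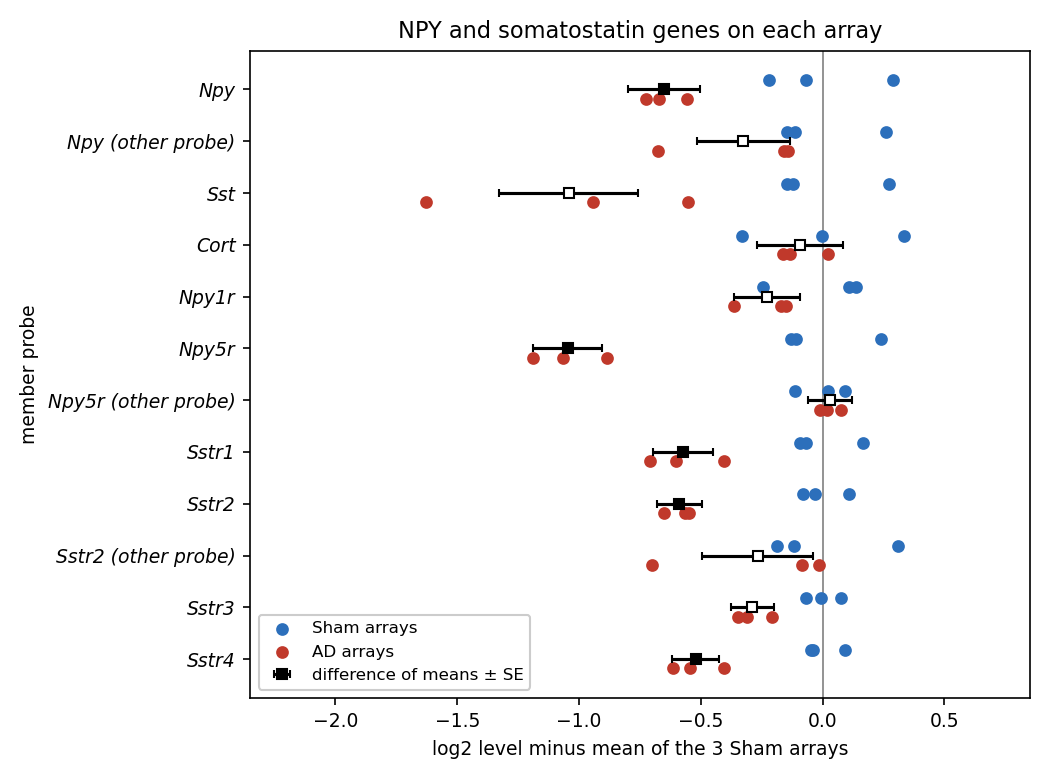
Log2 level of each of the 12 tested member probes in every sample, relative to that probe's Sham mean, with 3 AD (red) and 3 Sham (blue) points per probe and the difference of the means ± SE as a square (filled where the adjusted p was under 0.05). The 5 filled squares are all left of 0, and the Sst points of the AD arrays are the most widely spread.

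Among the peptides, Sst showed the widest spread. Its level was 3.57, 3.18 and 2.49 in AD replicates 1 to 3, and 3.97, 4.39 and 4.0 in Sham replicates 1 to 3. All AD values lay below all Sham values, with AD replicate 3 the lowest and AD replicate 1 only a little below the lowest Sham sample. The difference was -1.04 ± 0.29 (SE, n = 3 per group), or 48.6% of the Sham level, with a 95% interval from -1.74 to -0.35 and an adjusted p of 0.0638 by limma. This misses the threshold of 0.05, so Sst is not counted as down-regulated. Its unscaled processed signal was 10585, 7185 and 5236 in AD and 11805, 15847 and 6847 in Sham, so Sham replicate 3, the dimmest array, lay among the AD samples until arrays were scaled. With the normexp background correction Sst was called (-1.15, adjusted p 0.0405), and in no other of the 20 alternative settings did it pass, with changes from -1.29 to -0.75 and adjusted p-values from 0.0405 to 0.381 over all of them.

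Npy encodes the peptide ligand of the 3 NPY receptors described here, and it was measured by a pair of probes. The first, printed on 10 spots per array, had a level of 2.33, 2.28 and 2.45 in AD and 2.79, 2.94 and 3.29 in Sham. The AD samples lay close together and below every Sham sample. The difference was -0.65 ± 0.15 (adjusted p 0.0421, limma), or 63.7% of the Sham level. The unscaled signal was 4502, 3863 and 5088 in AD and 5195, 5780 and 4209 in Sham, so here too Sham replicate 3 overlapped the AD samples before scaling.

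The repeated spots give the error between spots within an array for that Npy level. Errors that all spots of an array share, as from labelling, hybridization or scan, are not in it and were not measured. After outlier spots were left out, 6 to 10 spots per array remained, and their SD within an array was between 0.03 and 0.07. The highest single AD spot, on AD replicate 3, was at 2.56, and the lowest single Sham spot, on Sham replicate 1, was at 2.74. The SD of single spots was thus smaller than the SD between samples, which was 0.26 in Sham and 0.09 in AD. The SDs between samples are those of means over spots, in which the spot error is smaller than in a single spot.

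**Figure D2:**
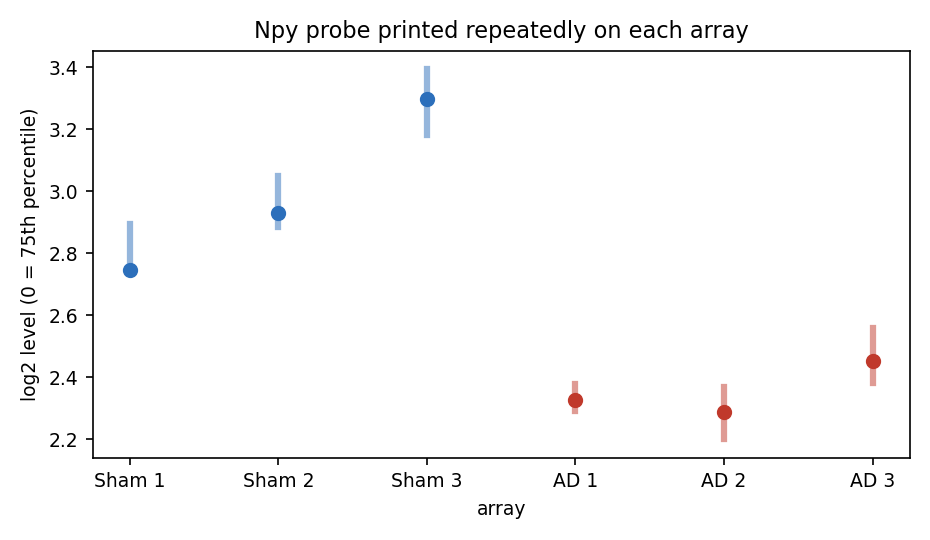
Log2 level (0 = the array's 75th percentile) of the Npy probe with 10 spots per array, with the median of the retained spots as a point and the lowest to highest spot as a bar, for the Sham (blue) and AD (red) arrays. The AD bars end at 2.56 and the Sham bars begin at 2.74.

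The other Npy probe had a level of -0.47, -1.01 and -0.49 in AD and -0.48, -0.07 and -0.44 in Sham. The groups overlapped, with AD replicate 2 the lowest and AD replicates 1 and 3 beside Sham replicates 1 and 3. The difference was -0.33 ± 0.19 (adjusted p 0.298), with a 95% interval from -0.79 to 0.14. The probes of Npy therefore pointed the same way, and only the first was called.

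Cort, the peptide closest to somatostatin, had a level of -0.05, -0.08 and 0.11 in AD and -0.24, 0.08 and 0.42 in Sham. The Sham samples enclosed all AD samples. The difference was -0.09 ± 0.18 (adjusted p 0.758), with a 95% interval from -0.52 to 0.34, and it turned positive without Sham replicate 3 (0.07).

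Npy5r, the receptor known for feeding and for seizure control, had the lowest adjusted p of the members. Its first probe was at -0.67, -0.49 and -0.80 in AD and 0.26, 0.28 and 0.63 in Sham. All AD samples lay well below the lowest Sham sample. The difference was -1.05 ± 0.14 (adjusted p 0.0197), or 2.07-fold lower, and the unscaled signals did not overlap either, at 537 to 566 in AD and 665 to 920 in Sham. The other probe of the gene was at -1.89, -1.94 and -1.97 in AD and -1.94, -2.08 and -1.87 in Sham, a difference of 0.03 ± 0.09 (adjusted p 0.856) with a 95% interval from -0.19 to 0.25. The probes of Npy5r disagree, since their intervals do not meet, and which transcripts each one reads was not tested.

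Npy1r, the receptor through which NPY acts on many principal cells and interneurons, is a neighbour of Npy5r. The annotated starts lie 8668 bases apart on chromosome 16 of GRCr8, and the genes are transcribed away from each other, Npy1r from the - strand and Npy5r from the + strand. Npy1r was at -0.47, -0.67 and -0.45 in AD and -0.16, -0.19 and -0.54 in Sham, where Sham replicate 3 lay among the AD samples. The difference was -0.23 ± 0.14 (adjusted p 0.301), with a 95% interval from -0.56 to 0.10.

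Npy2r, the presynaptic receptor by which NPY lowers glutamate release, gave no usable level. One of its probes was well above background on 1 AD array and 0 Sham arrays, and the other on 0 arrays. Their levels ran from -6.73 to -5.40, with the groups overlapping, and no fold change is given.

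All 4 somatostatin receptor genes had a reporting probe whose AD samples lay below every Sham sample, as did 23.4% of all tested probes. Sstr1 was at 0.77, 0.97 and 0.67 in AD and 1.54, 1.3 and 1.28 in Sham, with no overlap. The difference was -0.57 ± 0.12 (adjusted p 0.0375), or 67.3% of the Sham level. Sstr4, a receptor that is prominent in the hippocampus, was at -0.67, -0.53 and -0.73 in AD and -0.16, -0.17 and -0.03 in Sham. The groups were again apart, and the difference was -0.52 ± 0.10 (adjusted p 0.0282), or 69.6% of the Sham level.

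Sstr2, a receptor with high affinity for somatostatin and cortistatin and the second member with a cyclic AMP response element in its window, had its first probe at 1.1, 1.08 and 1.0 in AD and 1.57, 1.76 and 1.62 in Sham. The AD samples lay close to each other and below all Sham samples. The difference was -0.59 ± 0.09 (adjusted p 0.0218), or 66.5% of the Sham level. Its other probe was far dimmer on every array, at -4.90, -5.58 and -4.97 in AD and -5.00, -5.07 and -4.58 in Sham. There the groups overlapped, and the difference was -0.27 ± 0.23 (adjusted p 0.466).

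Sstr3, the receptor of neuronal primary cilia, was at -0.62, -0.48 and -0.58 in AD and -0.20, -0.34 and -0.28 in Sham. The groups did not overlap, but the smaller difference of -0.29 ± 0.09 gave an adjusted p of 0.0817, and it was not called. In the unscaled signals of Sstr1, Sstr2, Sstr3 and Sstr4, Sham replicate 3 was the lowest of the 6 samples, so for these receptors the separation of the groups appeared only after scaling.

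The calls of the members depended on which array was left out. Without any one of AD replicates 1, 2 or 3 or Sham replicates 1 or 2, 0 member probes were called, though 6 or 7 of the 12 still had an unadjusted p under 0.05 and 11 or 12 a lower mean. Over all 22768 tested probes these settings called 0, or 2 without AD replicate 3, so the loss was not particular to the members. Without Sham replicate 3, the same 5 were called and 10 had a lower mean. With scan as a random block (estimated correlation of arrays within a scan 0.49), limma called 0 probes of any gene and 5 member probes had an unadjusted p under 0.05. The 5 called probes kept a negative change in all 20 alternative settings. Npy5r lay between -1.13 and -0.93, Npy between -0.76 and -0.49 and Sstr1 between -0.66 and -0.49. Sstr2 lay between -0.64 and -0.49 and Sstr4 between -0.58 and -0.44. Npy and Sstr1 were called in 7 of the 20 settings, Sstr2 and Sstr4 in 11 and Npy5r in 12. Among the 20, the authors' value table and quantile normalization gave nearly the same changes and are not separate checks.

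**Figure D3:**
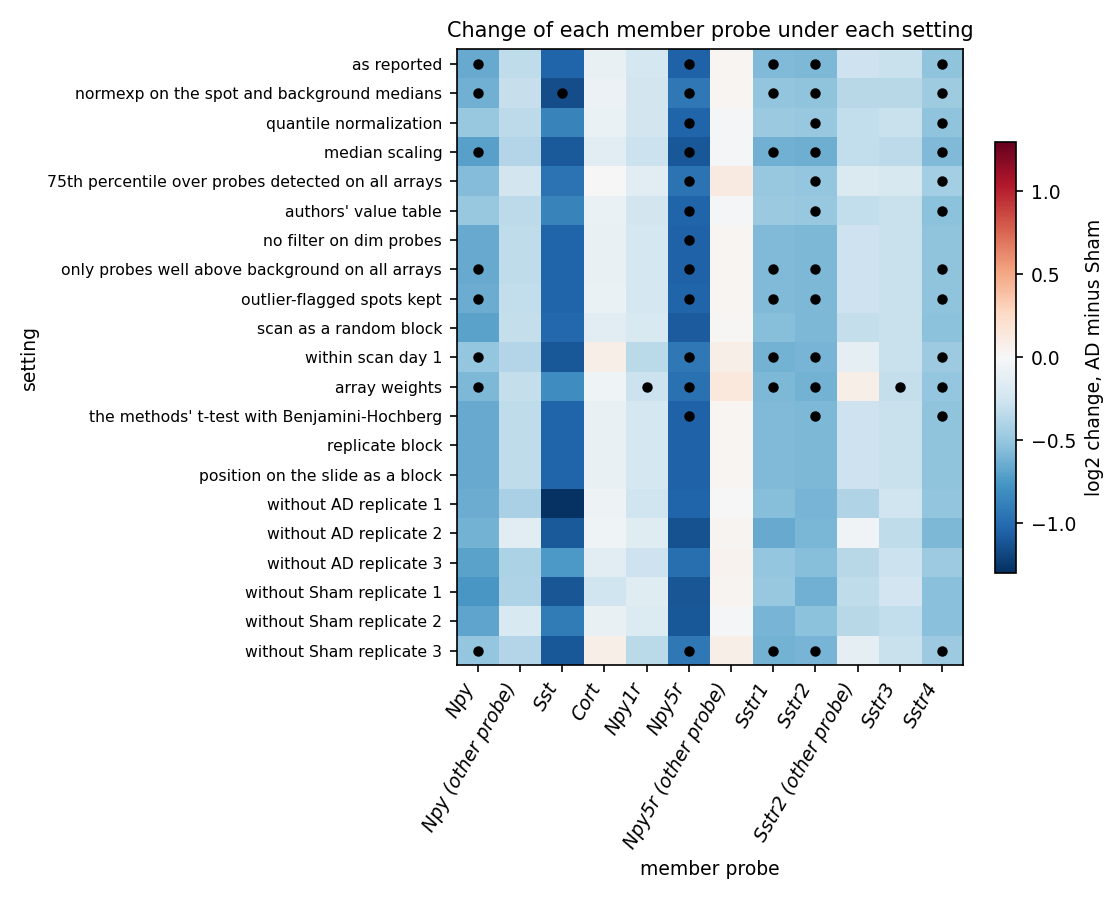
Log2 change (AD minus Sham) of the 12 tested member probes (columns) under the reported setting and 20 alternatives (rows), with blue lower in AD and a black dot where the adjusted p was under 0.05. The columns of Npy, Npy5r, Sstr1, Sstr2 and Sstr4 are blue in every row, while no dot is left when any array but Sham replicate 3 is left out or a block is added, and leaving out Sham replicate 3 is the same comparison as within scan day 1. Over all tested probes, the settings without a dot called 0, or 2 without AD replicate 3.

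The genes that make, cleave and transmit these peptides were described from lists, with 1 probe per gene, the brightest. Of 67 listed genes 59 were tested, 14 were called lower and 1 higher, with a median change of -0.21. Over all 11949 named genes tested in the same way 10.8% were called lower and 4.08% higher, with a median of -0.05. Both lists of somatostatin and NPY interneuron genes together held 8 of the 14 called lower.

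Of the other peptides and receptors of the families, Pyy, Ppy and Sstr5 were tested and 0 were called by limma (0 at an unadjusted p under 0.05), with Sstr5 at 0.24 ± 0.25 and Pyy at -0.21 ± 0.20, and Npy4r was not tested. Of 11 tested genes for precursor processing and dense-core granules, 2 were called lower and 1 higher. Scg5, the chaperone of prohormone convertase 2, was lower by -0.67 ± 0.12 (adjusted p 0.0262), and Cadps, a priming factor of granule release, by -0.60 ± 0.10 (adjusted p 0.0240), although the second probe of Cadps changed by -0.11. Scg3, a granule sorting protein, was higher by 0.53 ± 0.13 (adjusted p 0.0478), and it was not called within the first scan day.

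Of 5 tested peptide-cleaving enzymes 2 were called lower. Mme, which encodes neprilysin, was at -4.05, -4.14 and -4.03 in AD and -3.73, -3.30 and -3.40 in Sham, a difference of -0.60 ± 0.13 (adjusted p 0.0395) at a low signal. Prep, prolyl endopeptidase, changed by -0.59 ± 0.12 (adjusted p 0.0335). Within the first scan day 1 of the 5 was called lower.

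The signalling genes downstream of the receptors were mostly not called. Of 15 tested genes for inhibitory G proteins, adenylyl cyclases, potassium channels and their regulators, Gnai3, an inhibitory G protein subunit, was called at -0.52 ± 0.09 (adjusted p 0.0251). Of 7 tested genes for transcription in response to cyclic AMP, Atf1, a relative of CREB, was called at -0.58 ± 0.10 (adjusted p 0.0244), while its other tested probe changed by 0.16. The medians of the lists were -0.08 and -0.11, and the rest of their genes did not pass the test.

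Of 9 tested transcription factors of the interneurons that make somatostatin and NPY 2 were called lower, with a median of -0.42. Dlx1, a homeobox gene of inhibitory interneurons, was at 0.00, -0.20 and 0.07 in AD and 1.04, 0.97 and 1.05 in Sham, a difference of -1.06 ± 0.10 (adjusted p 0.0183).

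Of 9 other tested markers of these interneurons 6 were called lower and 0 higher, with a median of -0.59. Tac1, the precursor of substance P, was at 0.12, 0.10 and -0.05 in AD and 1.61, 1.46 and 1.41 in Sham, a difference of -1.44 ± 0.10 (adjusted p 0.0183). Pnoc, the nociceptin precursor, changed by -0.80 ± 0.14 (adjusted p 0.0273), and Rbp4, a retinol carrier, by -0.65 ± 0.14 (adjusted p 0.0364).

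**Figure D4:**
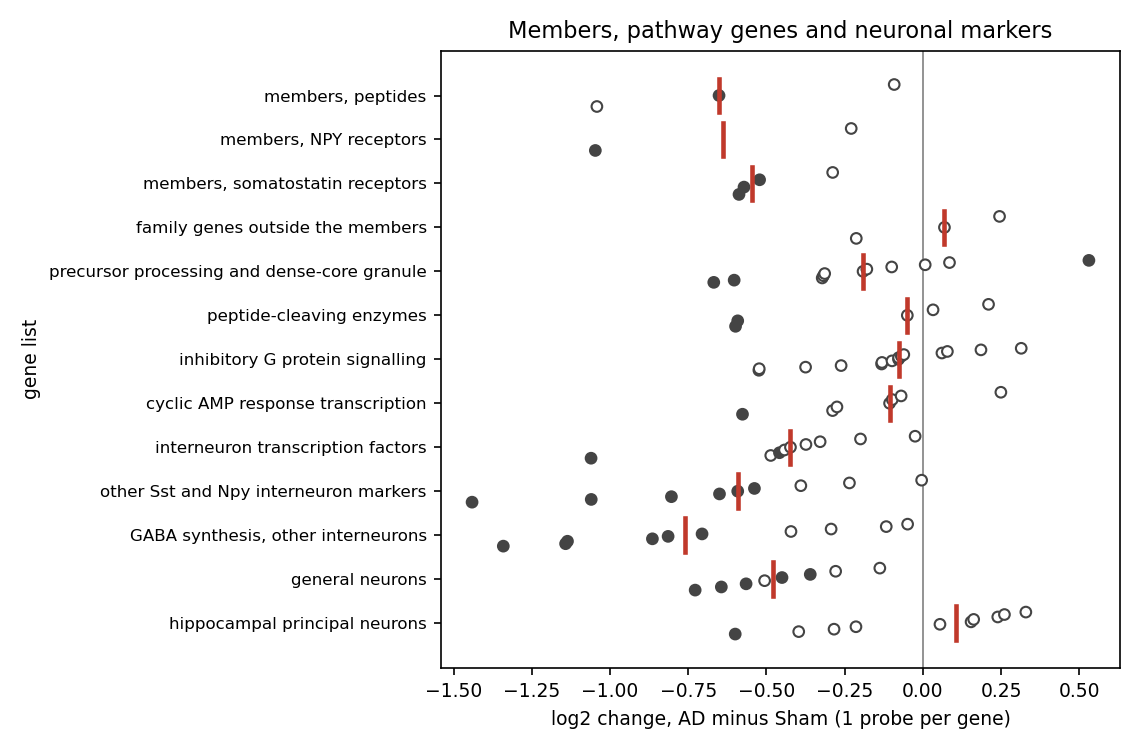
Log2 change (AD minus Sham) of each tested gene, 1 probe per gene, in the member groups, the pathway lists and the neuronal marker lists, filled where the adjusted p was under 0.05, with the median of each list as a red bar. The lists of interneuron genes have medians of -0.42, -0.59 and -0.76, and that of hippocampal principal neurons 0.10.

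Markers of other interneurons and general neuronal genes were mostly lower in AD, while 4 of 10 markers of hippocampal principal neurons had a lower mean. The part of these neurons in the members' change was not tested. Of 10 tested genes for GABA synthesis and other interneuron classes 6 were called lower, with a median of -0.76, and their summed level relative to the 75th percentile was 61.4 to 62.9 in AD and 100 to 107 in Sham. Vip changed by -1.34 ± 0.11 (adjusted p 0.0183) and Slc32a1, the vesicular GABA transporter, by -0.86 ± 0.12 (adjusted p 0.0203). All 10 had a lower mean, but Pvalb (-0.05 ± 0.11) and Lamp5 (-0.12 ± 0.09) changed little and were not called. Of 8 tested general neuronal genes 5 were called lower, with a median of -0.48 and a summed level of 81.7 to 90.6 in AD and 106 to 127 in Sham. Of 10 tested genes of hippocampal principal neurons, Spink8 was called lower (-0.60 ± 0.12, adjusted p 0.0335), the median was 0.10, and all 10 were bright enough to be tested in this hippocampal tissue.

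Some markers of other tissues moved too. All 7 choroid plexus markers had a higher mean in AD, with a median of 2.79, but 0 were called by limma (5 at an unadjusted p under 0.05, and 7 called higher with array weights). Their summed level ranged from 82.0 to 144 in AD and 27.3 to 103 in Sham. The 5 skeletal muscle markers were all higher in every AD sample than in any Sham sample, with Myl11 called (2.53 ± 0.59, adjusted p 0.0454) and a summed level of 0.51 to 3.10 in AD and 0.18 to 0.21 in Sham. With array weights 4 of the 5 were called higher. Of 6 striatal markers Ppp1r1b was called higher (0.80 ± 0.15, adjusted p 0.0285), and the median was 0.43. The others of that list went both ways without passing, with Drd2 at -0.65 ± 0.19 and Penk at -0.13 ± 0.14, the 2 with a lower mean. Of the 6, 4 were higher in every AD sample than in any Sham sample and 1 was lower. Over all tested probes 39.0% were apart in either direction. An unadjusted p under 0.05 (limma) was reached by 4 of the 6. Of 2 tested thalamic markers Lef1 was called higher (0.48 ± 0.09, adjusted p 0.0274), while Slc17a6 was at -0.22 ± 0.13. Of 2 tested neocortical markers 1 was called higher (0 within the first scan day) and 1 had a lower mean, with a median of 0.46. The part of these tissues in the members' change was not tested.

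Among glial, vascular and blood genes few were called. Cnp, an enzyme of myelin, was higher (0.55 ± 0.11, adjusted p 0.0318) among 5 oligodendrocyte markers, whose median was 0.16, with 1 lower mean. Cldn5, a tight junction gene, was higher (0.42 ± 0.09, adjusted p 0.0341) among 5 endothelial markers, whose median was 0.24, with 1 lower mean. Of 5 astrocyte markers 0 were called by limma (0 at an unadjusted p under 0.05). Their median was -0.23 and 3 had a lower mean, with Gfap at 0.95 ± 0.43 and Slc1a3 at -0.32 ± 0.15. Of 5 microglial markers 0 were called (0 at an unadjusted p under 0.05), with a median of -0.24 and 3 lower means, Itgam at -0.45 ± 0.47 and Csf1r at 0.18 ± 0.16. Of 3 blood markers 0 were called (1 at an unadjusted p under 0.05), with Hbb at -2.59 ± 0.95 on its brightest probe and 1.26 on another, and the median was -1.25 with the brightest probes but 0.12 with the mean of each gene's probes. With array weights 2 astrocyte markers were called lower and 1 higher, 1 microglial marker lower and 2 blood markers lower, and within the first scan day 1 microglial marker was called lower. The part of these cells in the members' change was not tested.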

How the data were processed

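Hippocampal mRNA was measured on 1-colour Agilent rat arrays, 1 per sample, with 3 AD and 3 Sham samples grouped by their labels. The deposited scanner output (Agilent Feature Extraction 11.0.1.1, per the file headers and the submitters' processing notes) holds a processed intensity per spot on a linear scale, background already subtracted. The authors also deposited a log2 value table. Its scaling is not stated, but its 6 columns share a median of 6.56, and their sorted values have a median gap of 0 to those of AD replicate 1. Its changes were nearly those after quantile normalization (Npy -0.492 and Sst -0.864 in both), so it is quantile normalized or close to it. Its columns for AD replicates 2 and 3 are exchanged against the scanner output, which does not touch group comparisons.

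Control spots and outlier spots (400 to 559 per array) were left out, 0 spots were saturated, and spots of a probe were averaged. Levels are processed signals on a log2 scale from which each array's 75th percentile, on the same log2 scale, was subtracted. Probes well above background on at least 3 of 6 arrays were tested (22768), using lmFit and eBayes of limma 3.58.1 (R 4.3.3), two-sided, without covariates, with Benjamini-Hochberg adjustment. The fit was tested on simulated data. The number of arrays limits the precision. Of 26997 accessions 15252 matched RefSeq symbols of GRCr8, naming 18005 probes (59.3%). Array design coordinates use another build and are not given. Promoter windows came from RefSeq (GRCr8).

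The members and lists were chosen with earlier results of these data known. All members were named, with every probe. From other lists, up to 4 called genes were named, or the 2 largest changes where 0 were called. Some genes that this rule takes are not reported here, and Drd2, Penk, Slc17a6 and Csf1r were named after their values were seen. Genes most like Npy and Sst were ranked by Pearson r. Alternatives were other scalings (median, quantile, detected probes only), the value table, normexp (offset 50) on spot and background medians (a mean signal column was not used here), other filters, outlier spots kept, scan as a random block (duplicateCorrelation, statmod 1.5.0), the first scan day, array weights, the methods' t-test, the replicate number as a block, each array left out and, chosen after seeing the data, position on the slide as a block.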

Additional observations from a re-analysis of the deposited data

How the results depend on the processing

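As reported, 2858 probes, 5 member probes and 15 pathway genes were called. All probes called numbered 1763 with normexp, 352 without a filter on dim probes, 4468 within the first scan day, 9872 with array weights, 1848 with the methods' t-test after Benjamini-Hochberg (327 at its fold and p thresholds, 2 of them members), and 0 with scan as a random block, the replicate block or slide position as a block. Member probes called numbered 3 with quantile normalization, the 75th percentile over detected probes, the authors' value table or the methods' t-test, 1 without the filter, and 0 with scan, the replicate block or slide position. Pathway genes called numbered 2 without the filter, 32 with array weights, 6 with the methods' t-test and 0 with scan, the replicate block or slide position. Leaving out 1 array gave 0 to 4468 probes, 0 to 5 member probes and 0 to 15 pathway genes, the highest without Sham replicate 3. At an unadjusted p under 0.05 there were 3672 probes with scan, 6482 with the replicate block, 6480 with slide position and 4856 to 8854 with 1 array left out. The other probe of Npy5r turned to -0.0214 with quantile normalization, -0.0223 with median scaling and -0.0191 with the value table, and lay between -0.0277 and 0.0752 with 1 array left out. Cort turned to 0.0746 within the first scan day and lay between -0.257 and 0.0746 with 1 array left out, and the other probe of Sstr2 turned to 0.0759 with array weights. The share of calls that were higher was 33.1% as reported, 17.4% with normexp, which moved the median of all probes to -0.15, 44.7% within the first scan day, 46.1% with array weights and 53.2% with the 75th percentile over detected probes. The cause of these changes was not tested. Replicate numbers did not pair the samples (same-number correlations of deviations 0.03, 0.07 and 0.14), and not every sample correlated best with its own number. The slide as a block was not run, since the slide is known here only through the scan. Dim probes limit Npy2r and the second probe of Sstr2.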

Other observations

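The named genes whose levels ran most like those of the first Npy probe over the 6 arrays were Vps4b (Pearson r 0.999), Cnnm3 (0.998) and Phf10 (0.997), and 724 of 14136 named probes had an r over 0.95. For Sst they were Cers1 (0.980), Rnpc3 (0.978) and Pdap1 (0.974), and 27 of 14137 named probes had an r over 0.95. These values describe 6 arrays that share the group difference and carry no test. None of these 6 genes was called (limma, adjusted p 0.0574 for Phf10 and above that for the others).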
